A study of Mus musculus with 8 samples.

Results

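Expression of 4 genes of the CCN family was examined in mouse left ventricle after infusion of angiotensin II (ANG II, a peptide hormone that raises blood pressure). The members were taken by gene name from the deposited table. They were Ccn1 (listed as Cyr61), Ccn2 (listed as Ctgf), Ccn4 (listed as Wisp1) and Ccn5 (listed as Wisp2), 4 of the 55679 genes in the table. The control group received saline and the ANG II group received 1500 ng/kg/min of ANG II, in both cases for 7 days from an osmotic pump under the skin, with 4 libraries per group. All mice were wild type (WT) males of the C57BL/6J strain, the latter as given in the methods. Blood was washed out of the hearts with saline and the left ventricles were then taken, so each library held the RNA of all cell types of the ventricle. The methods call the sequenced samples biological replicates. The labels do not tie each library to a mouse, and p-values measure the spread between these libraries.

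CCN proteins are secreted into the extracellular matrix, where they bind integrins, proteoglycans and growth factors and alter how cells respond to them. Most have 4 modules, namely an insulin-like growth factor binding domain, a von Willebrand factor type C repeat, a thrombospondin type 1 repeat and a cysteine knot at the C terminus. CCN1 and CCN2 are classical targets of the transcriptional coactivators YAP and TAZ with TEAD factors, CCN2 is in addition a target of transforming growth factor beta (TGF-β) and a marker of fibrosis, and CCN4 and CCN5 were first described as Wnt-inducible genes. CCN5 lacks the C-terminal module.

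The family relationship is visible in the coding sequence. The following 48 bases, from the GENCODE M21 transcript of each gene (GRCm38), encode the cysteine-rich signature of the insulin-like growth factor binding domain and are shown to compare the members. Capitals mark the 22 bases that are the same in all 4 genes. Positions are counted from the first base of the start codon, and the stretch lies at 133 to 180 in Ccn1, 142 to 189 in Ccn2, 202 to 249 in Ccn4 and 133 to 180 in Ccn5.
Ccn1: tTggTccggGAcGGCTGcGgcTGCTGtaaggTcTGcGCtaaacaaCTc
Ccn2: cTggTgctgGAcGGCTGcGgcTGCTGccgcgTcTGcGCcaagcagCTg
Ccn4: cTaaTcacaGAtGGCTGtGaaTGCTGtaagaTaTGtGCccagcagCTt
Ccn5: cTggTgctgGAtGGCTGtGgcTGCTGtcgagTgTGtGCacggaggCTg

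Over the whole aligned coding sequence, the identity between pairs of members ranged from 61.1% (Ccn1 and Ccn5) to 65.8% (Ccn4 and Ccn5). No 50-base word of any of the 4 genes was found in a transcript of another gene. The coding sequence of Ccn5 had 251 codons, against 379 in Ccn1, 348 in Ccn2 and 367 in Ccn4.

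Gene expression was given as FPKM (the fragments of a gene per length of its transcript and per depth of the library). The depth read from the steps of the values was 14455651 to 16564877 fragments per control library and 15118866 to 15976065 per ANG II library. Mitochondrially encoded genes took 26.3 to 26.9% of the fragments in control and 19.2 to 21.8% in ANG II. The median log2 fold change of all 19364 tested genes was 0.15, and it was 0.0042 after median-of-ratios scaling of the libraries. The extraction label names CRC cells as the source of RNA, but cardiomyocyte genes were at high levels in both groups. Myh6, the cardiac myosin heavy chain, averaged 10367 ± 391 FPKM under saline and 7102 ± 484 FPKM under ANG II (SD, n = 4 each).

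Ccn2, Ccn4 and Ccn5 rose in ANG II and Ccn1 did not pass the test. Mean FPKM in ANG II was 3.99-fold that of control for Ccn2, 9.16-fold for Ccn4, 9.21-fold for Ccn5 and 1.26-fold for Ccn1. Genes were called when limma gave a Benjamini-Hochberg adjusted p-value under 0.05 and an absolute log2 fold change above 0.5 on log2(FPKM + 1), a scale that understates the change of low genes. By this rule 3 of the 4 members were called higher, where 14.0% of all tested genes were called higher and 1.41% lower. The groups did not overlap for these 3 members, where 28.7% of all tested genes had all ANG II libraries above all control libraries, 5.06% had all of them below and 33.7% were without overlap in either direction.

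**Figure D1:**
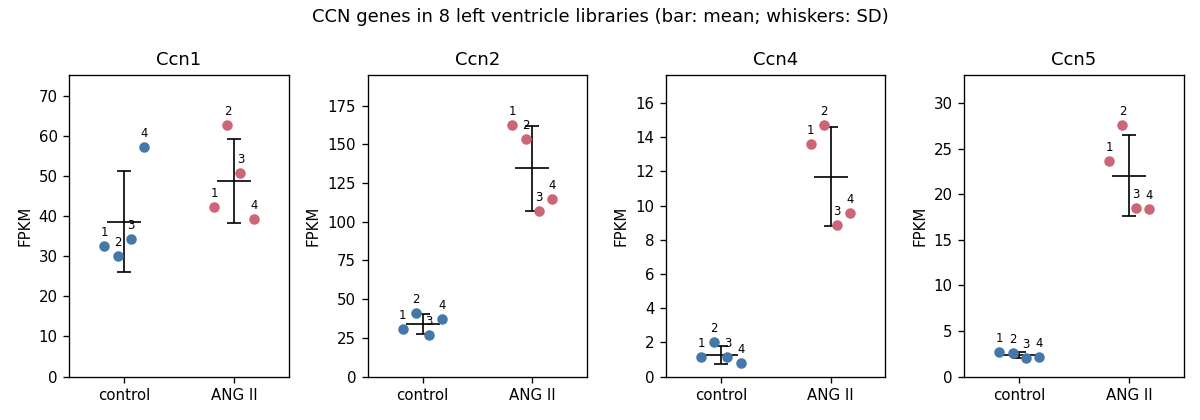
FPKM of each CCN gene (vertical axis, from 0, with its own range for each gene) in the 4 control and 4 ANG II libraries. Points are libraries with their replicate number, horizontal bars are group means and whiskers are SD. For Ccn2, Ccn4 and Ccn5 all ANG II points lie above all control points, and for Ccn1 control 4 at 57.3 FPKM lies above 3 of the ANG II libraries.

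Ccn2 (ENSMUSG00000019997, chr10:24595442-24598683, plus strand, GRCm38) encodes connective tissue growth factor, which promotes matrix production by fibroblasts. Its 4 control libraries were at 30.5, 41.0, 26.6 and 36.8 FPKM, and its 4 ANG II libraries at 162, 154, 107 and 115 FPKM. The lowest ANG II library was 2.61 times the highest control library. The group means were 33.8 ± 6.44 FPKM and 135 ± 27.6 FPKM (SD, n = 4 each). The log2 fold change was 1.96 (SE 0.162) with an adjusted p-value of 3.11e-05 by limma with Benjamini-Hochberg adjustment, which placed it at rank 105 of the 2708 genes called higher. The exact two-sided permutation test gave p = 0.0286, the smallest possible with 4 against 4. In whole ventricle, more cells of a type and more RNA per cell cannot be told apart for this or any other member.

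The values for Ccn2 rested on 768 to 4292 fragments per library. Of its exon length, 23.2% lay under Gm15270 on the opposite strand. The use of strand in counting is not given in the sources used here, and without strand the reads of the 2 genes cannot be told apart over that stretch. Gm15270 was listed at 0.328 to 0.835 FPKM under saline and 1.00 to 1.70 FPKM under ANG II, far below Ccn2 on the same scale.

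Ccn4 (ENSMUSG00000005124, chr15:66891320-66923201, plus strand, GRCm38) encodes a secreted protein that acts on mesenchymal cells. It was at 1.13, 2.04, 1.13 and 0.803 FPKM in control 1 to 4 and at 13.6, 14.7, 8.86 and 9.59 FPKM in ANG II 1 to 4. Control 2 was the highest control library and was still below every ANG II library. The means were 1.28 ± 0.533 FPKM and 11.7 ± 2.90 FPKM (SD, n = 4 each). The log2 fold change of 2.48 (SE 0.196) had an adjusted p-value of 2.42e-05 (limma, Benjamini-Hochberg) and stood at rank 49 among the genes called higher. The exact permutation p-value was again the smallest possible.

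Ccn4 was the least abundant member, and its control libraries held 21 to 51 fragments each. The lowest, in control 4, had an exact Poisson 95% interval of 13.0 to 32.1 fragments, which covers counting error only. Because of these low levels the log2 fold change depended on the scale, with 3.14 at a pseudocount of 0.1 and 3.23 by voom on the recovered fragments.

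Ccn5 (ENSMUSG00000027656, chr2:163820861-163833146, plus strand, GRCm38) encodes the member without the C-terminal module. Control libraries 1 to 4 were at 2.74, 2.61, 2.03 and 2.19 FPKM, and ANG II libraries 1 to 4 were at 23.7, 27.6, 18.5 and 18.4 FPKM. Its control values were close to each other, and its lowest ANG II library was 6.70 times its highest control library, the widest gap of the 4 members. The means were 2.39 ± 0.339 FPKM and 22.0 ± 4.45 FPKM (SD, n = 4 each). The log2 fold change of 2.75 (SE 0.137) was at rank 35 among the genes called higher, with an adjusted p-value of 3.10e-06 (limma, Benjamini-Hochberg).

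Ccn1 (ENSMUSG00000028195, chr3:145646976-145649981, minus strand, GRCm38) encodes CYR61, an integrin ligand that many cells induce within minutes of stimulation by growth factors. It was at 32.6, 30.0, 34.4 and 57.3 FPKM in control 1 to 4 and at 42.3, 62.6, 50.7 and 39.2 FPKM in ANG II 1 to 4. The groups overlapped because control 4 was above 3 ANG II libraries, whereas the other controls were below all of them. The means were 38.6 ± 12.6 FPKM and 48.7 ± 10.5 FPKM (SD, n = 4 each), and the ANG II library was higher in 13 of 16 pairs. The log2 fold change was 0.35 (SE 0.203, 95% interval -0.10 to 0.81) with an adjusted p-value of 0.213 by limma with Benjamini-Hochberg adjustment. The exact two-sided permutation test gave p = 0.229.

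The call of Ccn1 depended on control 4. Without it, the log2 fold change was 0.56 (SE 0.148) and the adjusted p-value 0.0240 by limma with Benjamini-Hochberg adjustment, so that Ccn1 was called. With all 8 libraries, the log2 fold change was 0.13 after median-of-ratios scaling and 0.18 after quantile normalization, and Ccn1 was not called under either. Control 4 was not left out together with a scaling. The interval therefore includes no change as well as a rise past the threshold.

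Other gene lists were read beside Ccn1 in each library. Control 4 was the highest control library for 7 of 24 tested immediate early genes, where it was highest for 17.5% of all tested genes, and control 1 for 8 of 24, where it was highest for 33.9%. In ANG II the highest was ANG II 4 for 13 of 24, the library in which Ccn1 was lowest, against 27.4% of all tested genes. Control 4 was highest for 4 of 5 valve interstitial markers, whose summed level was 33.3 FPKM there and 7.67 to 20.0 FPKM in the other controls, for 6 of 11 smooth muscle and pericyte markers, for 7 of 19 YAP/TAZ-TEAD targets, for 8 of 20 Hippo pathway core genes and for 6 of 15 SRF and MRTF genes. Control 2 was highest for more YAP/TAZ-TEAD targets, 8 of 19, and for 30.1% of all tested genes. Other lists went the other way. Control 4 was highest for 3 of 22 TGF-β genes, 1 of 10 macrophage markers, 0 of 10 cardiomyocyte markers and 0 of 6 mesothelial markers. In ANG II, smooth muscle and pericyte markers were most often highest in ANG II 4, for 5 of 11, and the summed valve markers were highest in ANG II 1 at 78.9 FPKM, whereas Ccn1 was highest in ANG II 2. The part of these genes in the Ccn1 values was not tested.

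**Figure D2:**
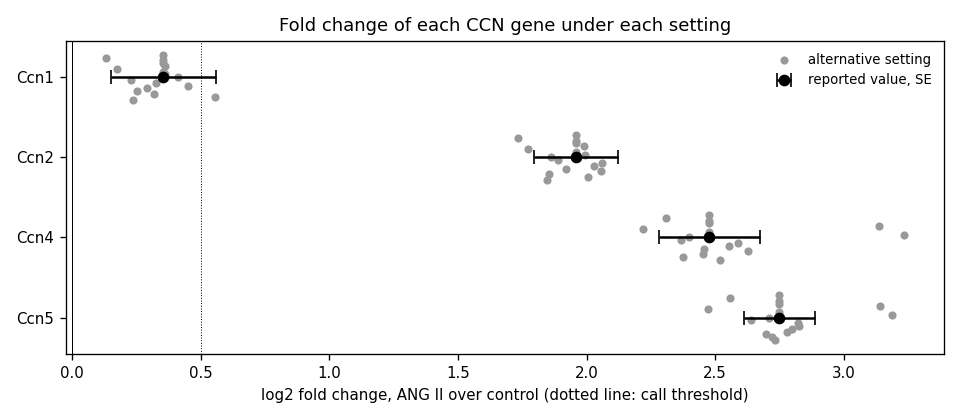
Log2 fold change of each CCN gene, ANG II over control (horizontal axis). Black points are the reported values with their SE, grey points are the alternative settings, and the dotted line is the call threshold of 0.5. Ccn2, Ccn4 and Ccn5 stay above 1.73 throughout, and Ccn1 passes the threshold in 1 setting, at 0.56 without control 4.

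The window before the start of Ccn1 is shown because it was the only one matched, and it holds the letters of the TEAD motif. The windows of the other members were not searched. A RefSeq promoter (GRCm38.p6) was matched for 1 of the 4 members. The 250 bases before the start site, chr3:145649986-145650235 on the minus strand, read as follows from 5′ to 3′, with the TEAD motif in capitals at position -103.
Ccn1 promoter: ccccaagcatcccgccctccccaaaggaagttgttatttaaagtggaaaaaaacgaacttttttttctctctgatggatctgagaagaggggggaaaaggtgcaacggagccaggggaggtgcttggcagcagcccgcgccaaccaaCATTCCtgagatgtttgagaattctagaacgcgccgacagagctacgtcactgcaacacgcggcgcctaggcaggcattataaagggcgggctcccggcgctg

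The motifs searched, on both strands of the 250 bases before and 50 bases after the start, were CATTCC (TEAD), CAGAC (SMAD), TGANTCA (AP-1) and the SRF CArG box. In the Ccn1 window the TEAD letters were found once and the SMAD letters once, at position 3 after the start, and the other motifs were not found. Of 32851 RefSeq promoters, 14.7% held the TEAD letters, 49.6% the SMAD letters, 7.81% the AP-1 letters and 1.63% the CArG box. A match describes the sequence and not a bound site.

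The other family genes were not called. Ccn3 (Nov), a member described as growth inhibitory, averaged 1.83 ± 0.847 FPKM under saline and 2.60 ± 0.369 FPKM under ANG II (n = 4 each, SD). It had a log2 fold change of 0.40 and an adjusted p-value of 0.180 (limma, Benjamini-Hochberg). Ccn6 (Wisp3) had 0 to 9 fragments per library and an adjusted p-value of 0.743 by the same test, and a small change of Ccn6 was not detectable at this depth. Of the Ccn6 exon length, 34.0% lay under Tube1 on the opposite strand.

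The balance within the family differed between the groups. By the deposited FPKM, Ccn1 and Ccn2 were at similar levels in control. Ccn1 was above Ccn2 in 3 of 4 control libraries, a difference within the spread. This nearness depends on the transcript length used, as given below. In ANG II the order was Ccn2, Ccn1, Ccn5 and Ccn4 in every library. Ccn5 was above Ccn4 in all 8 libraries.

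Of the summed FPKM of the 4 genes, Ccn1 made up 50.2 ± 8.22% under saline and 22.7 ± 4.19% under ANG II (SD, n = 4 each). The share of Ccn2 was 44.8 ± 7.01% and 61.9 ± 4.12%, that of Ccn4 1.74 ± 0.765% and 5.34 ± 0.417%, and that of Ccn5 3.24 ± 0.762% and 10.1 ± 0.377%. Each share differed between the groups with an exact permutation p-value of 0.0286, the smallest possible, and the shares are not independent of each other. The sum itself went from 76.0 ± 14.9 FPKM to 217 ± 39.1 FPKM.

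These levels depend on the length by which the fragments were divided. For Ccn4 the mean length of the annotated transcripts was 1709.5 bases, against 5097 bases for the transcript with the longest coding sequence. Per length of that transcript, an alternative chosen after the data had been seen, Ccn4 was at 0.428 ± 0.179 in control and 3.92 ± 0.973 in ANG II, Ccn5 at 1.83 ± 0.259 and 16.8 ± 3.40, and Ccn2 at 24.5 ± 4.68 and 97.8 ± 20.0 (SD, n = 4 each). The order of the group means was unchanged in both groups. Ccn1 has 1 annotated transcript and stayed at 38.6 ± 12.6 in control, so it was further from Ccn2 there. The shares of the summed FPKM rest on the values as deposited and were not recomputed.

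Ratios between members within a library depend little on the scaling of that library. The log2 ratio of Ccn1 to Ccn2, on FPKM + 1, was 0.16 ± 0.45 under saline and -1.45 ± 0.36 under ANG II (SD, n = 4 each), a difference of -1.60 (SE 0.291). The ratio of Ccn1 to Ccn4 differed by -2.12 (SE 0.383) and that of Ccn1 to Ccn5 by -2.39 (SE 0.278). Ccn1 thus changed by a smaller factor than each of the other members. The same ratios between the 3 called members also moved. Ccn2 to Ccn4 differed by -0.52 (SE 0.161) and Ccn2 to Ccn5 by -0.79 (SE 0.14).

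For these 5 ratios the groups did not overlap, and each had an exact two-sided permutation p-value of 0.0286, or 0.0343 after Benjamini-Hochberg adjustment over the 6 pairs. The ratio of Ccn4 to Ccn5 was -0.60 ± 0.28 in control and -0.87 ± 0.09 in ANG II, with overlapping groups, a difference of -0.27 (SE 0.146) and an exact permutation p-value of 0.143. This misses the threshold and does not show that Ccn4 and Ccn5 changed alike. Without control 2 the difference was -0.16. The ratios that hold Ccn4 or Ccn5 depended on the pseudocount. At 0.1 the difference was -1.15 for Ccn2 to Ccn4, -1.15 for Ccn2 to Ccn5, -2.78 for Ccn1 to Ccn4, -2.78 for Ccn1 to Ccn5 and -0.0010 for Ccn4 to Ccn5.

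**Figure D3:**
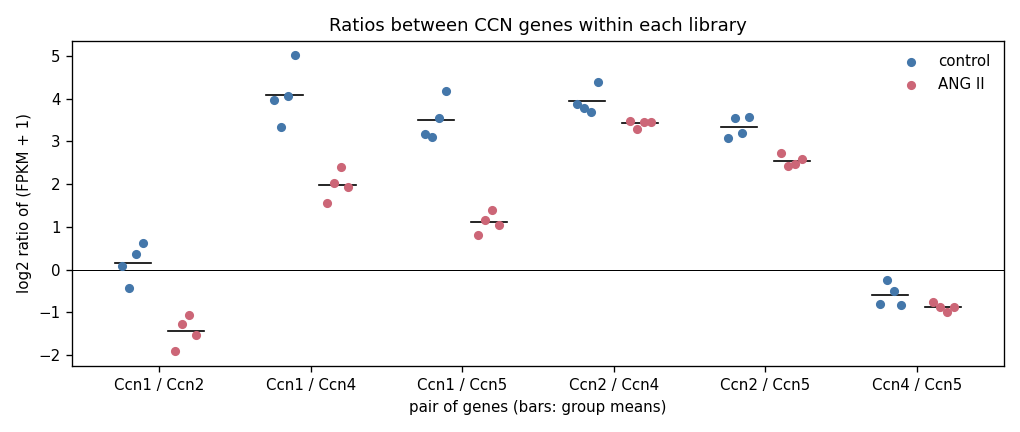
Log2 ratio of (FPKM + 1) for each pair of CCN genes (vertical axis) in each control and ANG II library (points), with group means as bars. Groups are apart for the 5 pairs other than Ccn4 to Ccn5, and the ratio of Ccn1 to Ccn2 moved from 0.16 to -1.45.

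The ANG II libraries differed among themselves in the same way for the 3 called members. Ccn2, Ccn4 and Ccn5 were each higher in ANG II 1 and 2 than in ANG II 3 and 4, and Ccn1 was not. This pattern was noticed in the values and is a description. It was present in 15.7% of all tested genes and in 24.2% of the genes called higher, and in 10 of 12 activated fibroblast markers, 10 of 15 SRF and MRTF genes, 5 of 19 YAP/TAZ-TEAD targets, 6 of 20 Hippo pathway core genes, 7 of 22 TGF-β genes, 4 of 8 Wnt/β-catenin feedback targets, 9 of 21 CCN binding partners, 3 of 10 quiescent fibroblast markers, 3 of 24 immediate early genes, 2 of 10 cardiomyocyte markers, 1 of 10 endothelial markers, 2 of 11 smooth muscle and pericyte markers and 0 of 10 macrophage markers. In control, Ccn2 and Ccn4 were both highest in control 2, the library with the highest activated fibroblast markers among the controls, whereas Ccn5 was highest in control 1.

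**Figure D4:**
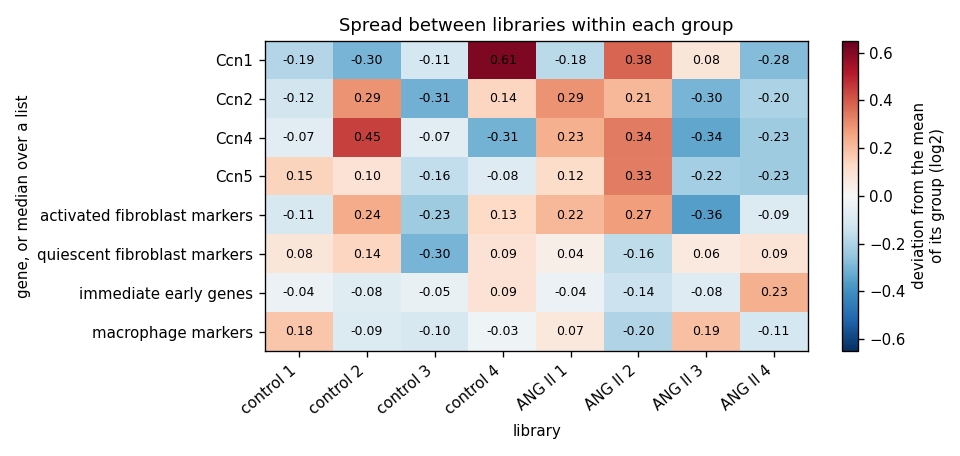
Deviation of each library from the mean of its group in log2(FPKM + 1), for each CCN gene and as the median over 4 marker lists (rows), in 8 libraries (columns). Red is above and blue below the group mean. Ccn2, Ccn4, Ccn5 and the activated fibroblast markers are above the mean in ANG II 1 and 2 and below it in ANG II 3 and 4, and Ccn1 stands out in control 4 at 0.61.

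The genes most like each member were found by the root mean square difference between centred log2(FPKM + 1) profiles over the 8 libraries, among 11888 genes that averaged at least 1 FPKM. The profile nearest to Ccn2 was that of Fbn1 (fibrillin 1, a microfibril protein) at a difference of 0.0915, followed by Adamts2 (a procollagen protease) at 0.0966 and Svep1 at 0.117. The nearest to Ccn4 were Aspn (asporin, a small proteoglycan) at 0.163, Sfrp1 (a secreted Wnt antagonist) at 0.180 and Itgbl1 at 0.193. The nearest to Ccn5 were Sfrp1 at 0.126, Loxl3 (a collagen cross-linking enzyme) at 0.148 and Col5a2 (a fibrillar collagen chain) at 0.211. Ccn5 was at rank 5 for Ccn4, and Ccn4 at rank 7 for Ccn5. Ccn1 had other neighbours, with Itih4 at 0.154, Ackr2 (a chemokine scavenging receptor) at 0.184 and Daxx at 0.191, and Ccn2 was at rank 11719 for Ccn1 and Ccn1 at rank 4424 for Ccn2. The measure does not separate the difference between groups from the spread within them.

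Among known regulators, targets of YAP, TAZ and TEAD beyond the CCN genes changed in part. Of 19 tested genes, 9 were called higher and 0 lower, with a median log2 fold change of 0.37, where 14.0% of all tested genes were called higher and 1.41% lower. Ankrd1, a stress-induced muscle gene, went from 582 ± 61.0 FPKM to 1685 ± 233 FPKM (n = 4 each, SD), or 1.53 on the log2 scale. Myof (1.53), Ccdc80 (1.48) and Tgfb2 (1.34) were also among the 4 with the largest changes. Crim1 (0.14) and Amotl2 (0.09) were abundant and not called. With median-of-ratios scaling 7 were called higher and 0 lower, against 8.63% of all tested genes higher and 4.15% lower, and with quantile normalization 7 higher and 1 lower, against 7.30% and 5.09%.

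The list named Hippo pathway core genes held TEAD factors, Vgll3 and Vgll4 beside the genes of the pathway itself. It gave 6 calls higher and 0 lower of 20, against 14.0% of all tested genes called higher and 1.41% lower. Its median log2 fold change was 0.42. Vgll3 (1.17) and the TEAD factor Tead2 (0.70) had the largest changes, followed by Mob1b (0.57) and the kinase Stk3 (0.56). Tead1 (-0.12) and Nf2 (0.15) were the most abundant genes not called. These calls depended on the scaling. After median-of-ratios scaling 2 of 20 were called higher, where 8.63% of all tested genes were, and after quantile normalization 1 of 20, where 7.30% were, both close to the share of all genes. They also depended on 1 library, since 3 of 20 were called without ANG II 1, where 12.8% of all tested genes were called higher.

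TGF-β ligands, receptors and Smads gave 12 calls higher and 0 lower of 22, with a median log2 fold change of 0.54 (all tested genes, 14.0% higher and 1.41% lower). Ltbp2, which belongs to the latent TGF-β binding protein family, went from 2.80 ± 1.46 FPKM to 48.9 ± 14.1 FPKM (n = 4 each, SD), or 3.75 on the log2 scale. The ligand Tgfb3 changed by 1.71 and Ltbp3 by 1.41. Ltbp4 (0.46) and the coreceptor Eng (0.28) were not called. After median-of-ratios scaling 10 were called higher and 0 lower, against 8.63% and 4.15% of all tested genes.

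SRF and MRTF factors link the actin cytoskeleton to transcription, and most genes of their list were others, such as Actn1 and Tpm2. The list gave 9 calls higher and 0 lower of 15, where 14.0% of all tested genes were called higher and 1.41% lower. Its median log2 fold change was 0.68. The factors themselves were named after their values were seen. Mkl1 (0.64) was called higher, though not after median-of-ratios scaling, and Srf (-0.12) and Mkl2 (0.32) were not called. Actn1 (1.39), Tpm2 (1.10), Cald1 (0.85) and Fhl1 (0.82) had the largest changes, and Tpm1 (-0.32) and Fhl2 (-0.03) were not called. After median-of-ratios scaling there were 6 higher and 1 lower, against 8.63% and 4.15% of all tested genes. Immediate early genes, the class to which Ccn1 belongs, gave 5 calls higher and 1 lower of 24, with a median of 0.35. The 5 were 20.8% of the list, not far from the 14.0% of all tested genes called higher, and are no result about the class. Junb (1.55), Ier3 (1.25), Fos (1.06) and Egr3 (1.00) were called higher. The gene called lower, Klf2 (-0.72), was named after its value was seen. Dusp1 (-0.37) and Klf6 (0.19) were not called. Of Wnt/β-catenin feedback targets, 2 were called higher and 1 lower of 8 tested, too few to set apart from the 14.0% and 1.41% of all tested genes. Nkd2 changed by 2.08, Apcdd1 by 0.78 and Tnfrsf19 by -0.58, while Axin2 (0.32) and Znrf3 (0.17) were not called.

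Partners to which CCN proteins bind, such as integrins, proteoglycans and growth factors, gave 15 calls higher and 0 lower of 21, with a median log2 fold change of 0.59 (all tested genes, 14.0% higher and 1.41% lower). Fn1, encoding fibronectin, went from 15.6 ± 1.98 FPKM to 205 ± 21.5 FPKM (n = 4 each, SD), or 3.63 on the log2 scale. Bgn, encoding the proteoglycan biglycan, changed by 2.18, and the integrin chains Itgb2 and Itgb3 by 1.31 and 1.23. Vegfa (-0.27) and Igf2r (0.42) were not called. After median-of-ratios scaling 10 partners were called higher and 0 lower, against 8.63% and 4.15% of all tested genes.

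**Figure D5:**
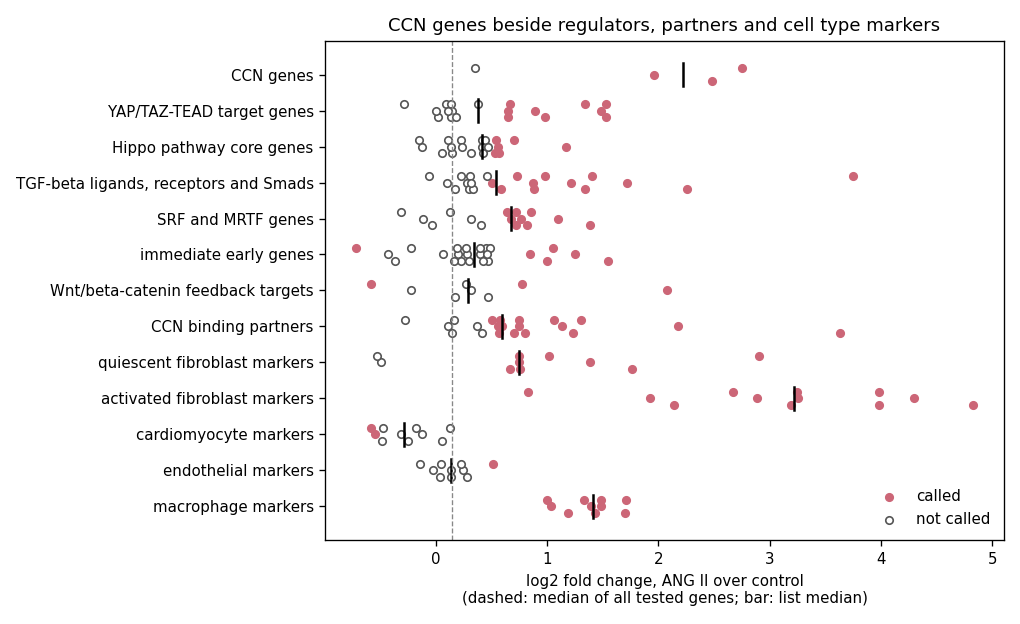
Log2 fold change, ANG II over control (horizontal axis), of the CCN genes and of 12 gene lists (rows). Each point is a gene, filled where it was called, bars are list medians and the dashed line is the median of all tested genes at 0.15. Ccn2, Ccn4 and Ccn5 lie above the medians of the regulator lists, and the activated fibroblast markers have a median of 3.22.

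Most listed fibroblast markers and all listed macrophage markers were called higher in ANG II, as were Ccn2, Ccn4 and Ccn5, and most markers of the other cell types were not called. The counts of markers are to be read against the 14.0% of all tested genes called higher and 1.41% called lower, against 8.63% and 4.15% after median-of-ratios scaling, and against 7.30% and 5.09% after quantile normalization. All 12 activated fibroblast markers were called higher, with a summed level of 225 to 387 FPKM under saline and 2600 to 3214 FPKM under ANG II. Of 10 quiescent fibroblast markers 8 were called higher, with summed levels of 1078 to 1421 FPKM and 1416 to 1759 FPKM, which overlapped. The other 2, Gsn (-0.50) and Scara5 (-0.53), were named after their values were seen, and they were called lower after both scalings, with 7 of the list called higher after median-of-ratios scaling and 6 after quantile normalization. All 10 macrophage markers were called higher, with summed levels of 296 to 374 FPKM and 674 to 940.1 FPKM. Of 10 endothelial markers 1 was called higher and 0 lower, close to the share of all genes, and 0 were called higher after either scaling. Their summed levels were 583 to 615 FPKM and 645 to 731 FPKM, without overlap. Their median log2 fold change was 0.14, near the 0.15 of all tested genes. Of 10 cardiomyocyte markers 0 were called higher and 2 lower, against 5 lower after median-of-ratios scaling and 1 lower after quantile normalization. Their summed levels were 56690 to 58096 FPKM under saline and 44414 to 46708 FPKM under ANG II. For 7 of the 10 all ANG II libraries were below all controls, where 5.06% of all tested genes were. For 1 all were above, where 28.7% were.

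Of 11 smooth muscle and pericyte markers, 3 were called higher and 1 lower, where 14.0% and 1.41% of all tested genes were, against 1 higher and 2 lower after median-of-ratios scaling (8.63% and 4.15% of all genes) and 1 higher and 1 lower after quantile normalization (7.30% and 5.09%). Of 4 tested atrial myocyte markers 2 were called higher, with a summed level of 6.70 to 55.2 FPKM under saline and 61.0 to 241 FPKM under ANG II, and the remaining marker, Bmp10, was at or near 0. None of the 4 was called after median-of-ratios scaling or quantile normalization. Summed atrial markers were highest in ANG II 3, where Ccn2 and Ccn4 were at their lowest among the ANG II libraries. Of valve interstitial markers 2 of 5 were called higher, and the atrial and valve lists are too short to set apart from the 14.0% of all genes. No mesothelial marker of 6 and no adipocyte marker of 5 was called by limma. The part of these cell types, and of the lower mitochondrial share in ANG II, in the levels of the CCN genes was not tested.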

How the data were processed

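RNA-seq was carried out on total RNA from left ventricles with oligo(dT) enrichment, in 4 control and 4 ANG II libraries grouped by their treatment labels. The authors deposited 1 table of FPKM values for all libraries. The submitters' processing notes name Bowtie2, HISAT and RSEM, and the study names limma and edgeR. The genome build, annotation and use of strand are not given in the sources used here.

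FPKM values were used as deposited. Fragments per library were read from the steps of low values times the mean GENCODE M21 transcript length, and 99.1 to 99.2% of values under 60 fragments were whole within 0.05 for genes with 1 transcript and 97.1 to 97.7% for genes with several. No molecular identifiers were used, so intervals cover counting error only. Genes that averaged at least 0.1 FPKM were tested by limma 3.58.1 in R 4.3.3 (lmFit, eBayes with trend) on log2(FPKM + 1), two-sided, with Benjamini-Hochberg adjustment over 19364 genes. The test was checked on simulated data, in which changes somewhat larger than that of Ccn1 were not called, and a first requirement on the recovery of changed genes was not met. Some of these genes lay too low to pass the fold threshold and others could have passed and were not called. The requirement was then restricted to genes over 1 FPKM. Single values and ratios were compared by exact permutation over the 70 allocations of 8 libraries, with Python 3.11.15 and scipy 1.17.1. Alternatives were the pseudocount (0.1), the filter (none, or 1 FPKM), median-of-ratios scaling, quantile normalization, removal of mitochondrially encoded genes, no variance trend, the replicate block, voom on recovered fragments, an absolute log2 fold change above 1 and each library left out.

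The members and gene lists were chosen with earlier results of these data known. From each list the text names up to 4 called genes that changed most and up to 2 abundant genes not called, and for each member the 3 most alike genes. A gene that this rule picks is not reported here singly, and counts over lists keep it. Marker lists of cell types are given by their counts and sums, with a few genes named after their values were seen. Libraries with the same number correlated at -0.03 to 0.06 in their deviations from the group means, and those with different numbers at -0.09 to 0.09. This shows no sign that the numbers pair the libraries, and it cannot exclude a pairing.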

Additional observations from a re-analysis of the deposited data

Results flagged for a closer look

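Among 24 groups of 4 libraries, 1 value lay far from the rest of its group. Ccn1 in control 4 was at 57.3 FPKM, and its gap to the nearest other control was 0.840 of the range of the group, above Dixon's 95% critical value. Chance flags about 1 in 20 groups.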

How the results depend on the processing

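Ccn2, Ccn4 and Ccn5 were called higher under all 18 alternatives, with log2 fold changes of 1.73 to 2.06, 2.22 to 3.23 and 2.47 to 3.19. Ccn1 ranged from 0.13 to 0.56 and was called only without control 4 (0.56). Leaving out 1 library at a time gave 0.23 to 0.56 for Ccn1, 3 to 7 calls for Hippo pathway core genes and 2722 to 3078 calls over all genes. Hippo pathway core genes went from 6 calls to 2 after median-of-ratios scaling and 1 after quantile normalization. Over all genes, 2981 were called (2708 higher, 273 lower), 795 above an absolute log2 fold change of 1, 2474 after median-of-ratios scaling (1671 higher, 803 lower), 2399 after quantile normalization (1413 higher, 986 lower) and 2775 without mitochondrially encoded genes (2243 higher, 532 lower). With the replicate number as a block, 2968 genes were called, the adjusted p-value of Ccn1 was 0.281 by limma and no call of a CCN gene changed. The pair ratios kept their direction under all 10 of their alternatives, except that Ccn4 to Ccn5 was at -0.0010, or no direction, at a pseudocount of 0.1. With 3 against 4 libraries the smallest exact permutation p-value is 0.0571, so leaving out a library says nothing about the calls of the ratios. Per length of the main transcript, an alternative added after seeing the data, the levels of Ccn2, Ccn4 and Ccn5 moved by more than 1 SD. Depth limits Ccn4 in control, with 21 to 51 fragments per library, and Ccn6, with 0 to 9.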
